A study of Mus musculus with 6 samples.

Results

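Homeobox genes encode transcription factors that bind DNA through a homeodomain. They were followed here on oligonucleotide arrays in stem-like cancer cells that were grown from TRAMP mouse prostates. Members were the genes whose array row carried a single symbol of the Hox, sine oculis, Meis, Pbx, Pknox, Irx, Lhx, Nkx, Pitx, Dlx, Msx, Tgif, Cux, Pou or Barx families. This gave 53 of the 9490 genes tested, each with 1 row, out of 115 protein-coding genes of these families in the RefSeq gene table. Of the 53, 31 were Hox genes out of 39. Barx and Pitx genes had no row, and the genes of these families that lack a row are not analysed here.

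The series has 2 groups of 3 samples. TPIN cells were taken at 10 to 11 weeks of age from TRAMP prostates with intraepithelial neoplasia. TNE cells were taken from TRAMP prostates with neuroendocrine tumours, at an age that the labels do not give. All mice carried the TRAMP transgene, in which the probasin promoter drives SV40 T antigen in prostate epithelium, and all cells were grown in serum-free DMEM F12 with EGF and FGF2. No sample from normal prostate is part of the comparison. Separate mice or cultures are not named for the samples of a group. The p-values thus measure only how these samples spread, part of which may be technical. Values are log2 expression after RMA, a method that corrects background and brings arrays to a shared scale, and levels of different genes are not compared.

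Hox genes lie in the clusters HoxA, HoxB, HoxC and HoxD and are numbered by paralogue group, from the low numbers used toward the head of the embryo to the high numbers used toward the tail and in the urogenital tract, where the prostate forms. Their proteins bind DNA together with cofactors of the TALE class, which includes the Meis, Pbx and Pknox families. The sine oculis (Six4 and Six5), LIM (Lhx), Dlx and POU proteins are other homeodomain classes that shape organs in the embryo. Polycomb complexes hold Hox clusters silent, and trithorax proteins and retinoic acid activate them.

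Of the 53 genes, 6 passed the threshold (adjusted p below 0.05 in limma over all genes tested) and all 6 were lower in TNE. They were the TALE cofactor Meis2, the HoxC genes Hoxc5, Hoxc6, Hoxc10 and Hoxc11, and Six5. This was 11.3% of the members, where 20.5% of all genes passed. Those lower in TNE made up 11.3% of members and 10.2% of all genes, so the share that fell was near the background. No member was called higher in limma, against 10.3% of all genes. At an unadjusted p under 0.05, 1 of the 53 members was higher and 17 were lower. Over all 9490 genes, 1904 were higher and 1786 lower at that p. With array weights in the limma fit, 3 of the 53 members were higher and 12 lower, against 2246 higher and 2021 lower of all 9490 genes. The groups did not overlap for 18 members, or 34%, and for 43.8% of all genes.

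Differences were negative for 38 members and positive for 15, with a median of -0.41 on the log2 scale, where the median over all genes was -0.02. The median size of the difference was 0.70 for members and 0.66 for all genes. The count of members that fell was 3 without TPIN replicate 1, without TPIN replicate 2 or without TNE replicate 2, and 10 without TPIN replicate 3. Of all 9490 genes, 550, 578, 475 and 1285 were lower in these 4 fits, in the same order. Members were dim on these arrays: 35 of 53, including 5 of the 6 that passed, had a mean level in the lowest 25% of genes, below 8.09. RMA narrows differences at such levels, and without detection calls no gene can be called absent.

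**Figure D1:**
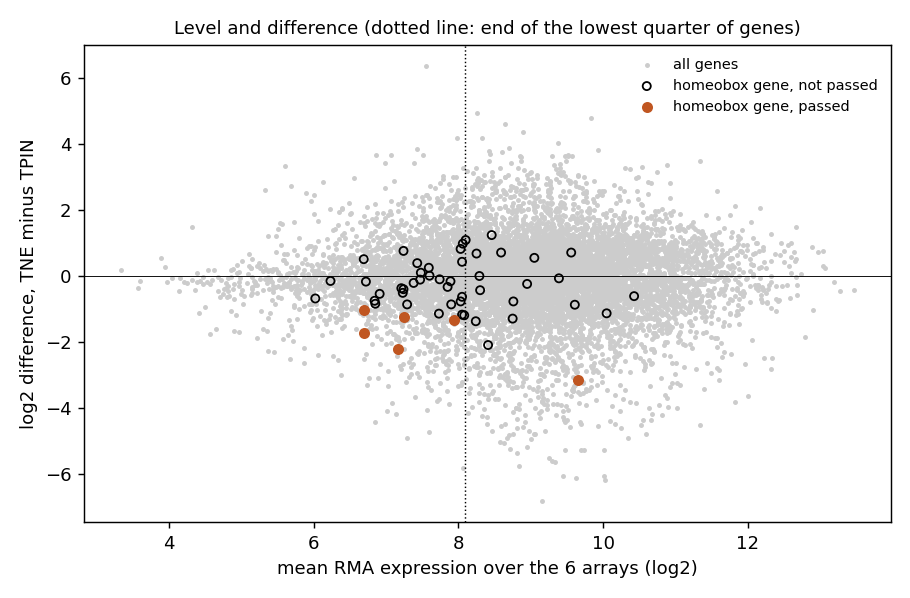
Mean log2 level over the 6 arrays (horizontal axis) against the log2 difference TNE minus TPIN (vertical axis) for all genes (grey) and the 53 homeobox genes (circles; filled where adjusted p was below 0.05). The 6 filled points all lie below 0, and 5 of them lie left of the dotted line at 8.09, the end of the lowest 25% of genes.

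Meis2 had the smallest p and the largest difference among the members. It encodes a TALE homeodomain protein that binds DNA beside Hox and Pbx proteins. Its level was 11.37, 11.04 and 11.29 in TPIN replicates 1 to 3 and 8.08, 7.64 and 8.48 in TNE replicates 1 to 3. The TPIN arrays lay close together, far above every TNE array. The means were 11.23 ± 0.17 in TPIN and 8.07 ± 0.42 in TNE (SD, n = 3 each), which made Meis2 8.95-fold lower in TNE (log2 difference -3.16, SE 0.30, limma adjusted p = 0.00113). With any 1 array left out the difference stayed past the threshold, at -3.37 to -2.95. It was the only passing member above the lowest 25% of genes by mean level.

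Meis1, its close relative, did not follow. Its level was 10.17, 10.36 and 11.68 in TPIN replicates 1 to 3 and 11.2, 10.53 and 8.62 in TNE replicates 1 to 3. The groups overlapped, and TNE replicate 3 was the lowest of the 6 arrays (log2 difference -0.62, SE 0.69, limma adjusted p = 0.525). The difference between the differences of Meis1 and Meis2 was not tested.

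**Figure D2:**
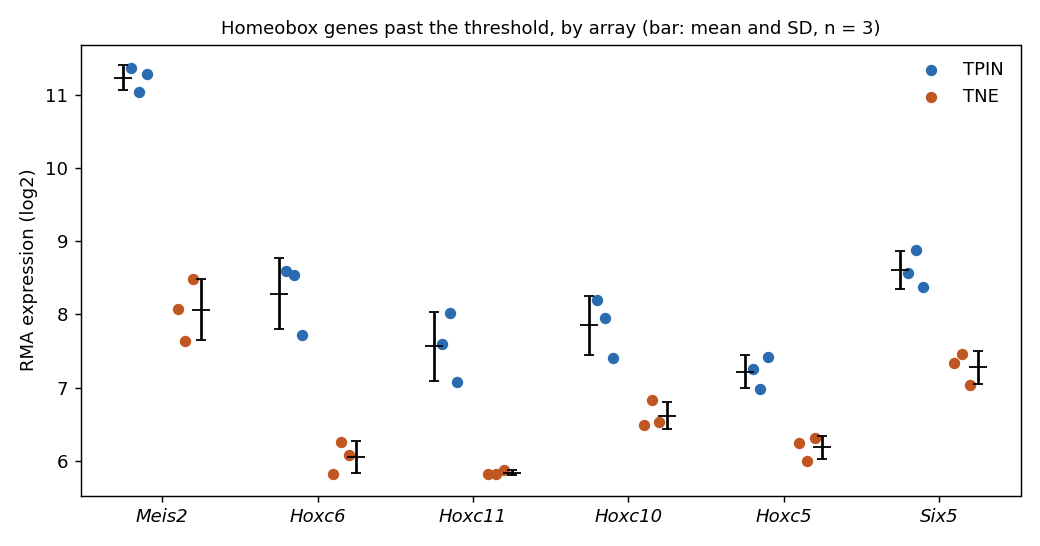
Log2 RMA expression of the 6 homeobox genes past the threshold, with a point for each of 3 TPIN (blue) and 3 TNE (orange) arrays and a bar for mean and SD. In each of the 6 genes the TPIN points lie above all TNE points, and the difference of means is largest for Meis2, at -3.16.

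Among the other TALE genes none passed. Pknox2, a Meis relative that binds Pbx, had the third largest difference of all members but wide spread: its level was 10.57, 10.19 and 7.61 in TPIN replicates 1 to 3 and 6.99, 7.93 and 7.16 in TNE replicates 1 to 3. TPIN replicate 3 lay below TNE replicate 2, so the groups overlapped (log2 difference -2.10, SE 0.74, limma adjusted p = 0.0778). Without TPIN replicate 3 the difference was -3.02 and passed (limma adjusted p = 0.00745, range 0.00745 to 0.225 over the arrays left out). Pknox1, the other member of that pair, ran the opposite way, at 7.96, 7.87 and 8.88 in TPIN and 8.71, 8.91 and 9.20 in TNE (log2 difference 0.70, SE 0.35, limma adjusted p = 0.175). It too passed without TPIN replicate 3 (limma adjusted p = 0.0368, range 0.0368 to 0.404). With array weights both Pknox2 and Pknox1 passed (limma adjusted p = 0.00874 and 0.0232).

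Pbx proteins are the common partners of Hox and Meis proteins. Pbx2 was at 9.35, 9.37 and 8.71 in TPIN and 8.46, 8.35 and 8.29 in TNE, with no overlap between groups, and did not pass (log2 difference -0.78, SE 0.29, limma adjusted p = 0.0877). It passed without TPIN replicate 3 (limma adjusted p = 0.0284, range 0.0284 to 0.232) and with array weights (limma adjusted p = 0.0115). Pbx3 was at 10.23, 10.51 and 9.39 in TPIN and 10.0, 9.61 and 7.89 in TNE, with TNE replicate 3 well below the rest (log2 difference -0.88). Tgif1, a TALE repressor of retinoid and TGF-beta responses, showed the same low array: 10.99, 10.78 and 10.09 in TPIN and 10.86, 9.57 and 8.0 in TNE, and the groups overlapped (log2 difference -1.14, limma adjusted p = 0.236).

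The Iroquois genes Irx1, Irx2, Irx5 and Irx6, patterning factors of the TALE class, had differences from -0.11 to 0.81. Irx5 was the only member with an unadjusted p under 0.05 and a higher level in TNE. Its level was 7.8, 7.61 and 7.47 in TPIN and 8.21, 8.54 and 8.57 in TNE; all TNE arrays lay above all TPIN arrays, by a narrow margin, and the gene did not pass (log2 difference 0.81, SE 0.26, limma adjusted p = 0.0629). It passed with array weights (limma adjusted p = 0.0174). Irx2 was at 8.66, 8.35 and 9.35 in TPIN and 10.06, 9.01 and 8.90 in TNE, and its groups overlapped.

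The HoxC cluster held all the Hox genes that passed. Of 8 HoxC genes with a row, 4 passed (50%, all genes 20.5%) and all 8 differences were negative, with a median of -0.95. All 8 were negative too when arrays were quantile-normalized again or centred. The groups did not overlap for 7 of the 8 (87.5%, all genes 43.8%). The cluster was singled out after its values were seen, so its counts are a description. The number of Hox genes that fell was 6 without TPIN replicate 3, with Hoxa6 and Hoxc8 added, and 2 without any 1 of the other 5 arrays. Of all 9490 genes, 1285 were lower without TPIN replicate 3 and 475 to 985 without 1 of the others.

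Hoxc6, a central Hox gene, had the largest difference of all Hox genes. Its level was 8.59, 8.54 and 7.72 in TPIN replicates 1 to 3 and 5.82, 6.26 and 6.08 in TNE replicates 1 to 3. Every TPIN array lay well above every TNE array. The means were 8.29 ± 0.49 in TPIN and 6.05 ± 0.23 in TNE (SD, n = 3 each), 4.69-fold lower in TNE (log2 difference -2.23, SE 0.33, limma adjusted p = 0.00464). Hoxc11, a gene of the high-numbered groups, was at 7.6, 8.02 and 7.08 in TPIN and 5.82, 5.82 and 5.88 in TNE. The TNE arrays were almost equal, and Hoxc11 was 3.31-fold lower in TNE (log2 difference -1.73, SE 0.31, limma adjusted p = 0.00925). Both genes kept their call when any 1 array was left out, with differences of -2.51 to -2.08 for Hoxc6 and -1.97 to -1.50 for Hoxc11.

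Hoxc10 and Hoxc5 passed with less margin. Hoxc10 was at 8.2, 7.95 and 7.41 in TPIN and 6.49, 6.83 and 6.53 in TNE, with means of 7.85 ± 0.40 in TPIN and 6.62 ± 0.19 in TNE (SD, n = 3 each) (log2 difference -1.24, SE 0.30, limma adjusted p = 0.0271). Hoxc5 was at 7.26, 6.98 and 7.42 in TPIN and 6.24, 6.0 and 6.31 in TNE, with means of 7.22 ± 0.22 in TPIN and 6.18 ± 0.16 in TNE (SD, n = 3 each) (log2 difference -1.04, SE 0.27, limma adjusted p = 0.0323). The groups did not overlap in either gene. Both calls held only without TPIN replicate 3 and were lost without any 1 of the other 5 arrays, with adjusted p between 0.0154 and 0.0959 for Hoxc10 and between 0.0420 and 0.130 for Hoxc5.

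The other HoxC genes did not pass. Hoxc9 was at 8.03, 7.27 and 7.87 in TPIN and 6.91, 7.03 and 6.63 in TNE (log2 difference -0.87, limma adjusted p = 0.077). Hoxc8 was at 7.5, 7.26 and 6.89 in TPIN and 6.22, 6.49 and 6.68 in TNE (log2 difference -0.76, limma adjusted p = 0.0939). Hoxc4 was at 6.42, 5.91 and 6.78 in TPIN and 5.6, 5.72 and 5.72 in TNE (log2 difference -0.69, limma adjusted p = 0.134). In these 3 genes every TPIN array lay above every TNE array. Hoxc8 passed without TPIN replicate 3 (limma adjusted p = 0.0492, range 0.0492 to 0.255) and with array weights (limma adjusted p = 0.0176). Hoxc13, at the tail end of the cluster, was at 6.63, 6.09 and 6.20 in TPIN and 5.96, 6.22 and 6.25 in TNE, with overlapping groups and a log2 difference of -0.16.

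**Figure D3:**
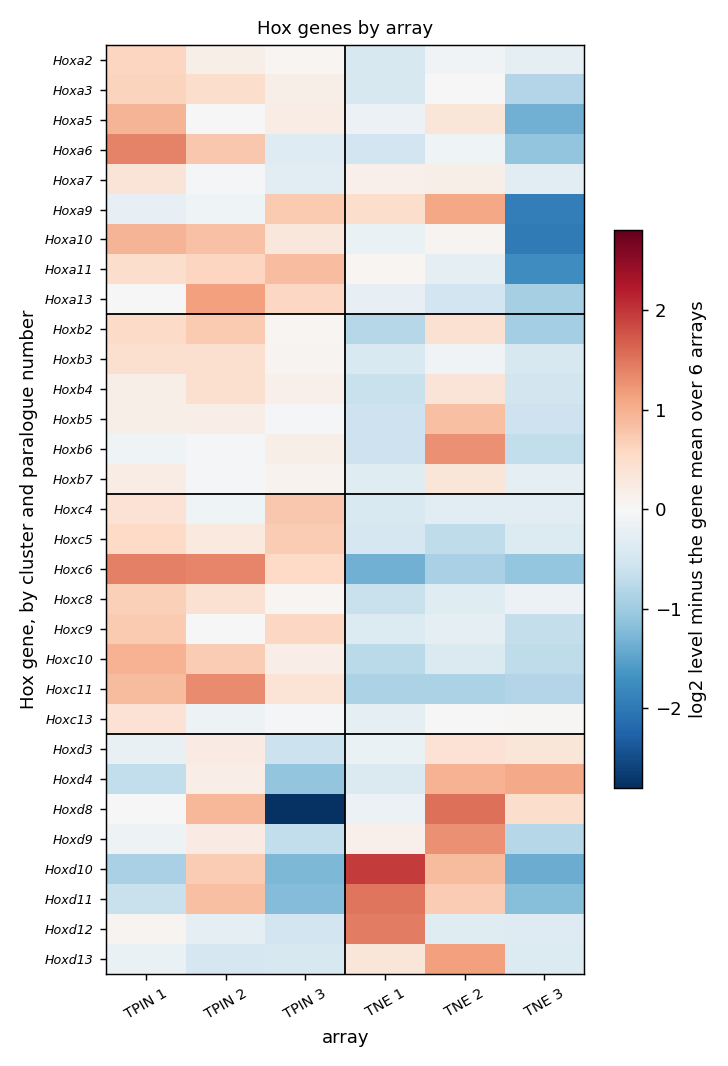
Log2 level of the 31 Hox genes on each array minus the gene's mean over the 6 arrays, with genes by cluster and paralogue number (rows) and arrays (columns; a vertical line parts TPIN from TNE). In each HoxC row but that of Hoxc13 every TPIN value is above every TNE value, whereas HoxD rows differ among the arrays of each group.

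HoxD genes had differences of the opposite sign. All 8 HoxD genes had a higher mean in TNE, with log2 differences from 0.38 to 1.23 and a median of 0.71, but none passed in limma, none had an unadjusted p under 0.05, and the groups overlapped in all 8. Of all 9490 genes, 3690 had such a p, 1904 of them higher, and the groups did not overlap for 43.8%. With array weights 1 Hox gene was higher, Hoxd13. All 8 differences were also positive with the arrays quantile-normalized again or centred, and 7 of 8 were without TNE replicate 1 or without TNE replicate 2.

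The HoxD genes numbered 9 to 13 differed among the TNE samples. Hoxd10 was at 7.16, 8.77 and 6.80 in TPIN replicates 1 to 3 and 10.01, 8.95 and 6.68 in TNE replicates 1 to 3. Hoxd11 was at 7.62, 9.09 and 7.04 in TPIN replicates 1 to 3 and 9.74, 8.96 and 7.06 in TNE replicates 1 to 3. In both genes TNE replicates 1 and 2 and TPIN replicate 2 were high, and TNE replicate 3 was close to the lowest TPIN array. Hoxd12 was at 6.76, 6.42 and 6.14 in TPIN and 8.12, 6.35 and 6.32 in TNE, high on TNE replicate 1 alone. Hoxd13, which acts in urogenital tract and digit formation, was at 7.04, 6.77 and 6.78 in TPIN and 7.58, 8.39 and 6.86 in TNE, highest on TNE replicate 2 (log2 difference 0.75, SE 0.40, limma adjusted p = 0.205). Hoxd9 was at 7.9, 8.28 and 7.35 in TPIN and 8.19, 9.32 and 7.26 in TNE, with TNE replicate 2 highest and TNE replicate 3 lowest.

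In the HoxD genes numbered 3, 4 and 8, TNE replicate 3 was among the 3 highest arrays. Hoxd8 was at 8.44, 9.38 and 5.7 in TPIN and 8.29, 10.00 and 8.94 in TNE, with TPIN replicate 3 far below the rest. Hoxd4 was at 7.4, 8.28 and 7.0 in TPIN and 7.69, 9.07 and 9.15 in TNE, with TNE replicates 2 and 3 above all other arrays; it did not pass (log2 difference 1.08, SE 0.50, limma adjusted p = 0.148), but it did without TNE replicate 1 (difference 1.55, adjusted p = 0.0484, range 0.0484 to 0.345). Hoxd3 was at 7.23, 7.66 and 6.84 in TPIN and 7.25, 7.84 and 7.78 in TNE, with a log2 difference of 0.38.

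The mean of the 3 HoxD genes numbered 3 to 8 was 7.69, 8.44 and 6.51 in TPIN and 7.74, 8.97 and 8.63 in TNE. The mean of the 5 numbered 9 to 13 was 7.3, 7.87 and 6.82 in TPIN and 8.73, 8.40 and 6.84 in TNE. On TNE replicate 3 the first set was therefore near the top of the 6 arrays and the second near the bottom. The split by number was made after the values were seen and has no test.

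**Figure D4:**
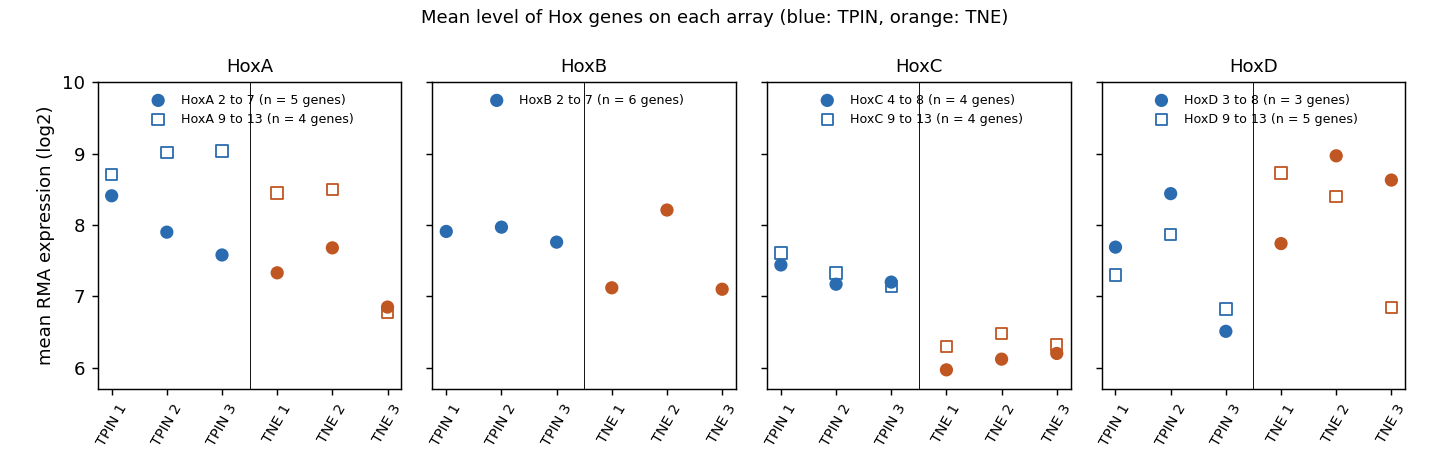
Mean log2 RMA expression of the Hox genes of low and high number (filled circles and open squares; paralogue numbers and gene counts in each legend) on each of the 6 arrays, by cluster, with TPIN in blue and TNE in orange. HoxC means of TNE arrays all lie below those of TPIN arrays, and the open squares of TNE replicate 3 are the lowest of the open squares for HoxA (6.77) and next to the lowest for HoxD (6.84).

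No HoxA gene passed in limma, and 5 of 9 had an unadjusted p under 0.05, all lower in TNE. Over all 9490 genes 3690 had such a p, 1786 of them lower. The groups did not overlap in 5 (55.6%, all genes 43.8%). All 9 differences were negative, from -1.38 to -0.01. The smallest was that of Hoxa7, which turned positive, without passing, when arrays were quantile-normalized again or centred. With 1 array left out, 7 to 9 of the 9 were negative. Hoxa13, Hoxa11 and Hoxa10 pattern the posterior body and the urogenital tract. Hoxa13 was at 7.73, 8.87 and 8.30 in TPIN and 7.49, 7.18 and 6.79 in TNE (log2 difference -1.15, SE 0.37, limma adjusted p = 0.0609). It passed with array weights (limma adjusted p = 0.0197). Hoxa11 was at 9.23, 9.34 and 9.62 in TPIN and 8.81, 8.48 and 7.01 in TNE (log2 difference -1.30, limma adjusted p = 0.0846). Hoxa10 was at 9.18, 9.05 and 8.55 in TPIN and 8.06, 8.32 and 6.26 in TNE (log2 difference -1.38, limma adjusted p = 0.101). TNE replicate 3 was the lowest array in each of these 3 genes, and no TNE array reached the lowest TPIN array.

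Hoxa9 stood out for its range within TNE. Its level was 8.71, 8.83 and 9.67 in TPIN replicates 1 to 3 and 9.43, 10.02 and 7.02 in TNE replicates 1 to 3, so it was highest on TNE replicate 2 and lowest on TNE replicate 3, and the group difference was -0.25. The mean of the 4 HoxA genes numbered 9 to 13 was 8.71, 9.02 and 9.04 in TPIN and 8.45, 8.50 and 6.77 in TNE.

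The HoxA genes of lower number were also lower in TNE on average. Hoxa6 was at 9.44, 8.81 and 7.68 in TPIN and 7.51, 7.93 and 6.94 in TNE (log2 difference -1.18, limma adjusted p = 0.115), and it passed without TPIN replicate 3 (adjusted p = 0.0299, range 0.0299 to 0.312) and with array weights. Hoxa3 was at 7.46, 7.33 and 7.02 in TPIN and 6.39, 6.86 and 6.02 in TNE and Hoxa2 at 7.51, 7.07 and 6.97 in TPIN and 6.47, 6.81 and 6.63 in TNE. In both, every TPIN array exceeded every TNE array, with log2 differences of -0.85 and -0.55. Hoxa5 was at 8.97, 8.05 and 8.24 in TPIN and 7.86, 8.36 and 6.69 in TNE and Hoxa7 at 8.66, 8.24 and 7.99 in TPIN and 8.44, 8.45 and 7.98 in TNE. Their groups overlapped.

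The 6 HoxB genes gave small differences, from -0.87 to 0.00, and none passed in limma. At an unadjusted p under 0.05, 1 was lower, Hoxb3, against 1786 lower of all 9490 genes. Hoxb3 was at 8.5, 8.50 and 8.12 in TPIN and 7.62, 7.96 and 7.60 in TNE, without overlap (log2 difference -0.64, limma adjusted p = 0.121). Hoxb2 was at 8.43, 8.63 and 7.95 in TPIN and 7.11, 8.33 and 6.96 in TNE and Hoxb4 at 7.41, 7.69 and 7.38 in TPIN and 6.62, 7.60 and 6.72 in TNE. TNE replicate 2 reached the TPIN levels in both. In Hoxb5, Hoxb6 and Hoxb7 that array was the highest of all 6: Hoxb5 was at 7.54, 7.57 and 7.35 in TPIN and 6.79, 8.22 and 6.79 in TNE, Hoxb6 at 7.47, 7.57 and 7.76 in TPIN and 7.01, 8.89 and 6.90 in TNE, and Hoxb7 at 8.11, 7.85 and 7.98 in TPIN and 7.55, 8.23 and 7.63 in TNE. The other TNE arrays of these 3 genes lay below every TPIN array.

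Genes of the same number in different clusters are paralogues, and the 4 HoxC genes that passed belong to groups 5, 6, 10 and 11. In group 11, the log2 difference was -1.30 for Hoxa11, -1.73 for Hoxc11 and 0.67 for Hoxd11. In group 10 it was -1.38, -1.24 and 0.97 for Hoxa10, Hoxc10 and Hoxd10. In group 6 it was -1.18 for Hoxa6, 0.00 for Hoxb6 and -2.23 for Hoxc6. In group 5 all 3 differences were negative, -0.78 for Hoxa5, -0.22 for Hoxb5 and -1.04 for Hoxc5. Groups 5, 6, 10 and 11 were chosen because their HoxC gene passed, and none of the paralogues of these genes did. In group 13, which was not chosen, the log2 difference was -1.15 for Hoxa13, -0.16 for Hoxc13 and 0.75 for Hoxd13. The differences between paralogues were not tested.

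**Figure D5:**
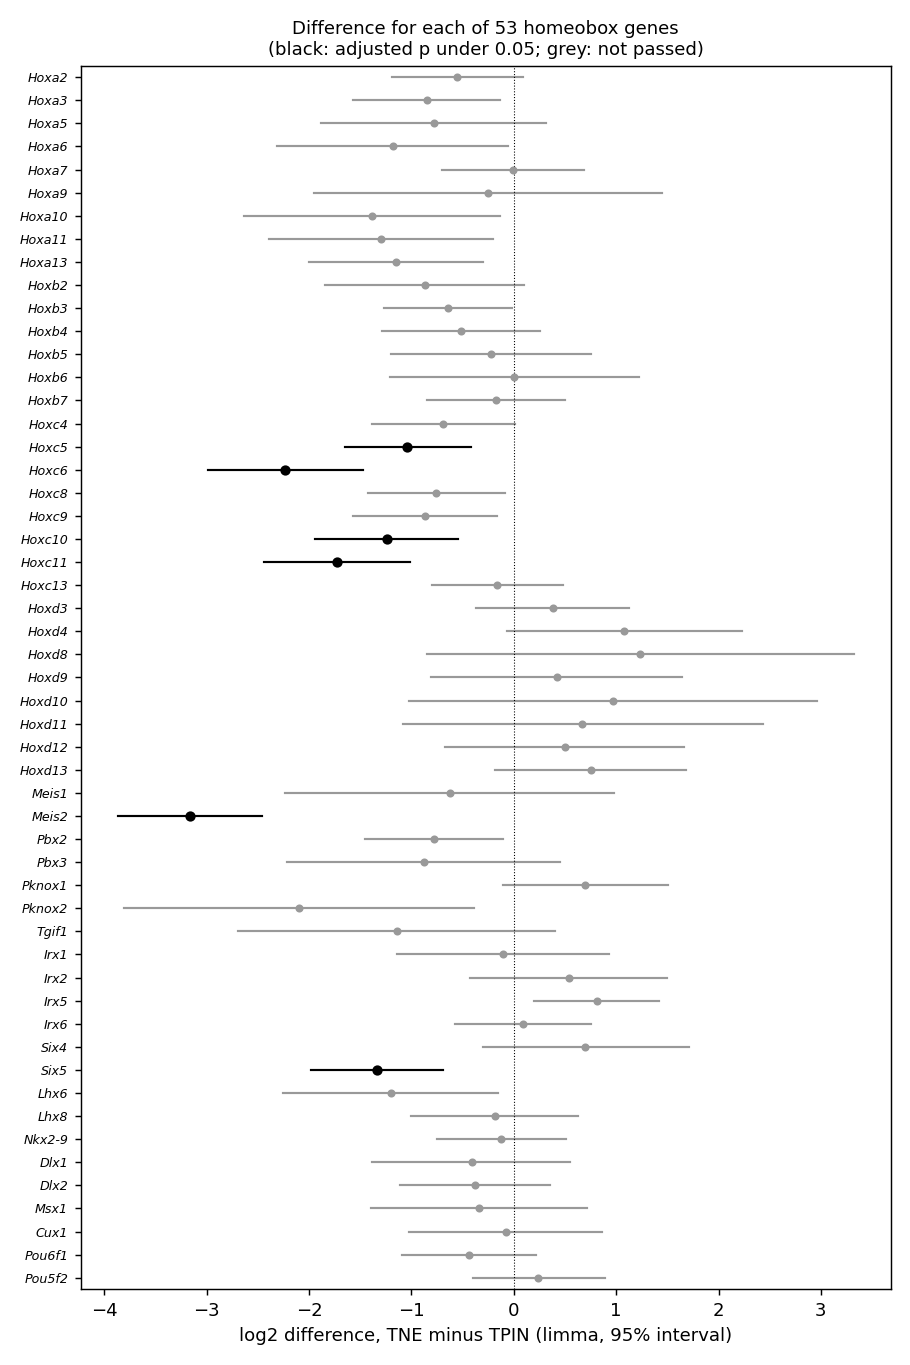
Log2 difference TNE minus TPIN (horizontal axis) with its unadjusted 95% interval from limma for each of the 53 homeobox genes, ordered by family (black where adjusted p was below 0.05). The HoxC intervals of Hoxc5, Hoxc6, Hoxc10 and Hoxc11 lie wholly below 0, and the intervals of all 8 HoxD genes include 0. Intervals of some genes that did not pass, Hoxc8 and Hoxc9 among them, also lie wholly below 0.

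Sine oculis homeobox proteins act with Eya coactivators and Dach corepressors in the growth of organ primordia. Six5 was at 8.57, 8.88 and 8.37 in TPIN replicates 1 to 3 and 7.34, 7.46 and 7.03 in TNE replicates 1 to 3. Every TPIN array lay above every TNE array, and Six5 was 2.53-fold lower in TNE (log2 difference -1.34, SE 0.28, limma adjusted p = 0.0155). The call was lost when TPIN replicate 1 or 2 or TNE replicate 2 was left out (adjusted p = 0.0527, 0.0563 and 0.0507; range 0.0170 to 0.0563). Six4 was at 9.01, 9.42 and 9.18 in TPIN and 10.89, 9.44 and 9.40 in TNE. Only TNE replicate 1 stood apart, and the gene did not pass (log2 difference 0.70, limma adjusted p = 0.258).

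Promoter sequence, from RefSeq on build GRCm38.p6, was matched for 35 of the 53 members, and for Meis2 and Six5 among those that passed. Hoxc5, Hoxc6, Hoxc10 and Hoxc11 are named only. The 250 bases before the start site are shown 5′ to 3′ for Meis2 and Six5, the passing members with an entry, and for Hoxc4 and Hoxd4, paralogues whose differences had opposite signs and did not pass. They lie at chr2:116064620-116064869, minus strand, for Meis2, chr7:19094294-19094543, plus strand, for Six5, chr15:103034145-103034394, plus strand, for Hoxc4, and chr2:74721728-74721977, plus strand, for Hoxd4. The start sites are those of 1 RefSeq transcript each; for Meis2 and Hoxc4 they lie inside the gene model, downstream of its outermost start. Capitals mark TGACAG, the core that Meis and Tgif proteins bind, and TGATNNAT, a core of joint Pbx and Hox binding, on either strand.
Meis2: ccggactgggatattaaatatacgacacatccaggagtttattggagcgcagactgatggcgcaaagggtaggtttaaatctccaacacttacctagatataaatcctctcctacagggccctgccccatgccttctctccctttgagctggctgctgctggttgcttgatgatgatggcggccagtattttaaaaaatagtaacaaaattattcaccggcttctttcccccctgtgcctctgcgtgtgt
Six5: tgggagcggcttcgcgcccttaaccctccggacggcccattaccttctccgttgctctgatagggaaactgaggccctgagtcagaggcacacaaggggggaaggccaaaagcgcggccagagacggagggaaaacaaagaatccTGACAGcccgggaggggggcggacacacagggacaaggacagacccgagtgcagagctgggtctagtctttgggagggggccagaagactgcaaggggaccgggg
Hoxc4: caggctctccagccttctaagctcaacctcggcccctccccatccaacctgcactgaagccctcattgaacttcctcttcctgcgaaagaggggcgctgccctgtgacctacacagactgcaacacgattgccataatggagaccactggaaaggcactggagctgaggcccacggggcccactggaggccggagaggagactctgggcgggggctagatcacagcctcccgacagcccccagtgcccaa
Hoxd4: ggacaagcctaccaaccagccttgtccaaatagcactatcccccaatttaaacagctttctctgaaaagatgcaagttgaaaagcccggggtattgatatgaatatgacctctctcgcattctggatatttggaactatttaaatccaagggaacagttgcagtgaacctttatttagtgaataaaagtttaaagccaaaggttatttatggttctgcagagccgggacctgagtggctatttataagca
TGACAG occurred once, in the Six5 window, and TGATNNAT in none of the 4. Over all 32851 promoter windows of this length, 15.9% held TGACAG and 7.68% held TGATNNAT; over the 44 windows of members the shares were 6.82% and 6.82%. GGGCGG, a GC box on either strand, was present in the Six5 and Hoxc4 windows, in 50% of member windows and in 32.7% of all windows. The GC content was 47.6% for Meis2, 62.8% for Six5, 62% for Hoxc4 and 40.4% for Hoxd4, where the median of all windows was 52.4%. A match is a description of letters and not a binding site.

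The remaining families did not pass. Lhx6, a LIM homeodomain factor of interneurons and tooth mesenchyme, was at 9.74, 8.22 and 8.08 in TPIN and 7.38, 7.44 and 7.62 in TNE, without overlap and with TPIN replicate 1 well above the rest (log2 difference -1.20, SE 0.45, limma adjusted p = 0.092); it passed with array weights (adjusted p = 0.0323). Lhx8 had a log2 difference of -0.18. The Dlx genes, which act in forebrain and jaw, had differences of -0.41 (Dlx1) and -0.38 (Dlx2), and the mesenchymal factor Msx1 of -0.34. Differences for Nkx2-9, the CUT-class repressor Cux1, and the POU genes Pou5f2 and Pou6f1 were -0.12, -0.08, 0.24 and -0.44. The groups of all 8 genes named after Lhx6 overlapped.

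Homeobox genes outside these families were read from a list of 84 genes, of which 27 had a row. Of these 5 were lower in TNE (18.5%, all genes 10.2%), none was higher in limma (all genes 10.3%) and 22 did not pass. The median difference was -0.74. At an unadjusted p under 0.05, 9 were lower and 2, Shox2 and Satb1, were higher. Prrx1, a paired-class regulator of mesenchyme, was 38.9-fold lower (12.34 ± 0.17 in TPIN and 7.06 ± 0.15 in TNE; adjusted p in limma = 0.000211). The zinc finger homeobox genes Zeb1 and Zfhx3 had log2 differences of -1.47 and -1.59, and Tshz1 of -1.13. Prrx1 kept its call without any 1 array; Zeb1 lost it without TNE replicate 2 (adjusted p up to 0.0621), Zfhx3 without 3 arrays (up to 0.0796) and Tshz1 without 4 (up to 0.108). The falls numbered 2 when TPIN replicate 1 or TNE replicate 2 was left out and 3 when TPIN replicate 2 or TNE replicate 1 was. They numbered 4 without TNE replicate 3 and 6 without TPIN replicate 3. Satb1 passed as higher without TNE replicate 1, and Shox2 without TNE replicate 3.

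Partners and regulators were counted in the same fit, in which 10.3% of all genes were higher and 10.2% lower. Of 5 measured partners of Six4 and Six5 none passed in limma, with 1 higher at an unadjusted p under 0.05, Eya1 (log2 difference 1.84), which passed without TPIN replicate 3. Of 10 partners of LIM homeodomain proteins, the LIM-only adaptor Lmo4 rose 2.68-fold and Ssbp2, which stabilises the Ldb1 complex, fell 4.06-fold in TNE (limma adjusted p = 0.0181 and 0.0183). Lmo4 lost its call without TNE replicate 2, and Ssbp2 without TPIN replicate 1 or TPIN replicate 2.

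Of 20 measured Polycomb genes, which keep Hox clusters silent, 4 rose (20%, all genes 10.3%), none fell (all genes 10.2%) and 16 did not pass. The median difference was 0.16 (all genes -0.02). At an unadjusted p under 0.05, 6 were higher and 2, Phf1 and Rnf2, were lower. Ezh2, the histone H3 lysine methyltransferase of the complex, rose 3.91-fold, from 9.77 ± 0.47 in TPIN to 11.74 ± 0.23 in TNE (limma adjusted p = 0.0068), and kept its call without any 1 array. Suz12, Mtf2 and Phf19, its partners, had log2 differences of 1.22, 1.22 and 1.24, and lost their calls without 3, 5 and 5 of the 6 arrays. The rises numbered 1 when TPIN replicate 1, TNE replicate 2 or TNE replicate 3 was left out and 2 when TNE replicate 1 was. Leaving out TPIN replicate 3 gave 2 falls.

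The 19 listed regulators of Hox genes include trithorax proteins, retinoid enzymes and receptors, and the insulator protein Ctcf. They also include geminin, which binds Hox proteins and inhibits them. Of the 19, 6 rose (31.6%, all genes 10.3%), geminin among them, and 1 fell (5.26%, all genes 10.2%). Aldh1a2, which makes retinoic acid, was 27.6-fold lower in TNE (11.15 ± 1.61 and 6.36 ± 0.41, limma adjusted p = 0.00531). Gmnn (geminin) was 4.23-fold higher, Psip1, a chromatin tether of the MLL complex, 3.25-fold, and Ctcf 2.19-fold. Aldh1a2, Gmnn and Psip1 kept their calls without any 1 array, and Ctcf lost its call without any 1 array other than TPIN replicate 3. When TPIN replicate 1, TPIN replicate 2 or TNE replicate 2 was left out 2 rose, and 3 rose when TNE replicate 1 or 3 was left out. The falls numbered 3 without TPIN replicate 3 and 2 without TNE replicate 1.

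Markers of cell types and proliferation genes were counted in the same fit, in which 10.3% of all genes were higher and 10.2% lower. Of 16 measured fibroblast and smooth muscle markers 12 fell in TNE; their summed linear level was 71900 to 102000 in TPIN and 5770 to 9530 in TNE. Of 31 proliferation genes 24 rose, with summed levels of 10300 to 34400 in TPIN and 70800 to 88400 in TNE. With TPIN replicate 1 left out 15 rose, with TNE replicate 2 left out 13, and with any 1 of the other arrays left out 18 to 30. Of 10 measured neuroendocrine markers 4 rose (summed 4680 to 9100 and 9760 to 19600), but 2 when TPIN replicate 1 or 3 was left out and 1 when TPIN replicate 2 was. They numbered 5 without TNE replicate 1 and 3 without TNE replicate 2 or 3. Of 7 prostate epithelial markers with a row 2 fell and 1, Fkbp5, rose (5740 to 8150 and 2330 to 4380). Fkbp5 lost its call when TPIN replicate 1, TNE replicate 2 or TNE replicate 3 was left out. Foxa1 passed as higher only without TNE replicate 3. The basal keratins Krt5 and Krt14 and the epithelial adhesion gene Epcam are not analysed here. Of 6 endothelial markers 3 fell, Eng, Cd34 and Flt1, and 1 rose (5400 to 8460 and 837 to 1890). The rise was that of Cdh5, 3.08-fold (limma adjusted p = 0.0151), which kept its call without any 1 array. The falls numbered 1 when TPIN replicate 2 or 3 or TNE replicate 2 was left out, and 2 when any 1 of the other arrays was. None of 4 leukocyte markers passed in limma, nor had any an unadjusted p under 0.05 (513 to 745 and 390 to 1550). RMA gives no value of 0, and a summed linear level weighs the brightest genes of a list most. The part of these markers in the differences of the homeobox genes was not tested, and fewer cells of a type and less RNA per cell cannot be told apart.

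Arrays of a group differed: TNE replicate 3 had the lowest value of the 6 for 22 of the 53 members, and TNE replicate 1 for 14. With arrays quantile-normalized again these counts were 23 and 11, and with arrays centred on their medians 12 and 20. Array medians over all rows were 8.82 to 9.10, with the lowest on TNE replicate 3. Arrays correlated at 0.842 to 0.905 in TPIN and 0.825 to 0.917 in TNE, and at 0.549 to 0.733 across the groups.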

How the data were processed

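The deposited table holds log2 expression values of 6 single-colour arrays, made by the authors with RMA, per the submitters' processing notes; no source used here gives its version or a genome build. Per the labels' protocols, cDNA was labelled with an Affymetrix kit for whole transcripts. The table has 10361 rows, part of the array, selected by a rule that no source used here gives. The array annotation paired 9496 rows with 1 symbol, 374 with several and 491 with none; the row of highest mean was kept for 6 genes with several rows. Groups came from the sample titles; the free-text descriptions name intraepithelial neoplasia for all 6.

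TNE and TPIN were compared by limma 3.58.1 (R 4.3.3; group means, empirical Bayes, two-sided, Benjamini-Hochberg over 9490 genes, threshold 0.05), and the fit was tested on simulated data. No member row shared an annotated accession with another. The number of arrays limits the precision. Every member was accounted for, with values by array for the Hox genes, those that passed and those known from prostate; other genes named were up to 4 genes per list, by smallest p; genes named for a count of 5 or fewer or for a marker without a row were chosen after their values were seen. Members and lists were chosen with earlier results of these data known. Alternatives were normalization, centring, a filter on the lowest 25% of genes, trend and robust variance, array weights, all rows, and leaving out each array.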

Additional observations from a re-analysis of the deposited data

How the results depend on the processing

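With arrays quantile-normalized again, arrays centred, trend and robust variance or all rows tested, 6 members fell and none rose in limma, and each member kept its side of the threshold. Leaving out the lowest 25% of genes removed 35 members, among them 5 of the 6 that had passed, the 4 HoxC genes included; of the 18 left 1 fell, 4 did not overlap and 0 Hox genes fell, while over the 7117 genes tested 866 were higher and 861 lower. Array weights gave 3 members higher and 12 lower, with 1 Hox gene higher and 7 lower, while calls over all genes went from 976 to 2246 higher and from 965 to 2021 lower; the cause was not tested. Leaving out each array, which leaves fewer samples, gave 0 to 1 members higher, 3 to 10 lower and 19 to 29 without overlap, and 0 to 1 Hox genes higher and 2 to 6 lower; calls over all genes ranged from 357 to 1311 higher and from 475 to 1285 lower. Of the 6 calls, those of Meis2, Hoxc6 and Hoxc11 passed in every such fit. The share of all genes without overlap was not counted after the filter or with an array left out. The 4 members without overlap after the filter, and the 19 to 29 with an array left out, thus have no background to be read against. No paired analysis was possible because the labels carry no replicate number shared between the groups.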
